A study of Mus musculus with 6 samples.

Results

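The genes described here are 36 genes of the unfolded protein response (UPR) and the integrated stress response (ISR), taken by gene symbol from a count table of 24594 genes. All 36 had a row, and 35 passed the low-count filter that left 12592 genes for testing. Expression was measured by RNA sequencing in mouse small-intestinal organoids, which are epithelial cultures that form crypt-like and villus-like domains. Single cells had grown for 96 h before the organoids received 5 uM NIBR-LTSi, an inhibitor of the Hippo pathway kinases LATS1 and LATS2, or DMSO alone, and both groups were collected after a further 24 h. Each group had 3 libraries, all organoids were taken apart into single cells before RNA purification, and no strain, age or genotype of the donor mice is named in the labels. Separate cultures are not stated for the replicates, so each p-value speaks only of the variation among these 6 samples, which may be technical.

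The UPR is the response of a cell to misfolded protein in the endoplasmic reticulum (ER). Its sensors sit in the ER membrane: ATF6 is cut in the Golgi to release a transcription factor, IRE1 (gene Ern1) splices the Xbp1 mRNA, and PERK (gene Eif2ak3) phosphorylates the translation factor eIF2. The ISR joins PERK with the other eIF2 kinases, and phosphorylated eIF2 lowers general translation while favouring translation of the ATF4 mRNA. ATF6 and spliced XBP1 are known for inducing ER chaperones and degradation factors, ATF4 for inducing amino acid synthesis, amino acid transport and feedback genes. In the intestinal epithelium the secretory lineages, Paneth and goblet cells above all, depend on this system. Much of it acts by cleavage, splicing, phosphorylation and translation, which gene counts do not record.

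Total counts were 18395427 to 26767043 per library. The organoid label was checked with marker genes: the epithelial marker Epcam read 1108 to 1219 CPM (counts scaled to a common library size) in the DMSO libraries and 1107 to 1157 CPM in the NIBR-LTSi libraries. Of the 5 epithelial markers, Krt8 rose 1.38-fold and Krt18 1.55-fold, Vil1 fell 1.31-fold, and Epcam and Cdh1 were not called. Of the fibroblast, immune and endothelial markers, Dcn, Cd3e, Cdh5 and Kdr had no read and the 3 collagen genes were at no more than 0.142 CPM. Vim read 5.93 to 8.11 CPM in DMSO and 4.79 to 5.44 CPM in NIBR-LTSi and fell (adjusted p = 0.043), and Cd68 reached 2.27 CPM. In bulk RNA, fewer cells of a type and less RNA per cell cannot be told apart.

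Promoter sequence is shown first because members of the chaperone groups share a motif in it. Promoter windows of 300 bases, from 250 before to 50 after the transcription start, were found in RefSeq (assembly GRCm38.p6) for 32 of the 36 genes. The ER stress response element (ERSE), read as CCAAT and CCACG separated by 9 bases on either strand, occurred in 9 of the 32 and in 39 of 32851 promoters of the same length (0.119%). Of the 12 genes with a promoter that rose with NIBR-LTSi, 6 held it, against 0 of 6 that fell and 2 of 13 that were not called; the ninth was Derl3, which was not tested. Windows around each match in the genes that rose follow, with the motif letters in capitals and the strand on which they read.
Hspa5 (chr2:34772013-34772055, plus strand): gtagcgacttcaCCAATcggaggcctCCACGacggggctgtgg
Hsp90b1 (chr10:86705626-86705668, minus strand): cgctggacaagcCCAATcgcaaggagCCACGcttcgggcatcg
Hsp90b1 (chr10:86705521-86705563, plus strand): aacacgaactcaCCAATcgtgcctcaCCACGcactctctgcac
Pdia6 (chr12:17266479-17266521, plus strand): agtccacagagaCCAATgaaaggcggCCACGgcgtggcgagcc
Calr (chr8:84847063-84847105, plus strand): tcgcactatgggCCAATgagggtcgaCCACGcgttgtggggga
Canx (chr11:50325788-50325830, minus strand): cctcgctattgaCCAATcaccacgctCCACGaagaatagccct
Creld2 (chr15:88819508-88819550, minus strand): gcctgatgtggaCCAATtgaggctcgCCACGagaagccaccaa
Hsp90b1 has a pair of matches on opposite strands. Among the tested genes outside the 36 that hold the motif, 2 of 9 rose and 2 fell. A match is a description of letters, and binding was not measured. The 36 genes were listed for known roles in the UPR and ISR, so their share with this element says nothing about NIBR-LTSi. Those that rose with it are all chaperone, disulfide or lectin genes, so motif and role cannot be told apart. Hspa5, Calr and Canx lost their calls with the width adjustment described below, and the difference between calls was not tested. The whole window of Hspa5, which encodes the central ER chaperone BiP, is printed with its match in capitals.
Hspa5 (chr2:34771840-34772139, plus strand): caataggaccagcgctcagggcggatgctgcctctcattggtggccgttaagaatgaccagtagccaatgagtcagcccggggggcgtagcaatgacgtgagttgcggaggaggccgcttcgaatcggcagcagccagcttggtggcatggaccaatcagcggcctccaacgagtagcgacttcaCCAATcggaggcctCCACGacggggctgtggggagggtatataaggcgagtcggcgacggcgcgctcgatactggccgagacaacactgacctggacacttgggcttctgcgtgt
The C/EBP-ATF response element core TGATGNAA, known as the letters read by ATF4, was found on either strand in 5 of the 32 and in 3.97% of all promoters. These were Chac1, which rose, Atf3, Trib3 and Herpud1, which fell, and Vldlr, which was not called. The windows of those that changed are given with the core in capitals.
Chac1 (chr2:119351037-119351068, minus strand): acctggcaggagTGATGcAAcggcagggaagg
Atf3 (chr1:191183424-191183455, plus strand): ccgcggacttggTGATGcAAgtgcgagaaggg
Trib3 (chr2:152344027-152344058, plus strand): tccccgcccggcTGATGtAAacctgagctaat
Herpud1 (chr8:94386305-94386336, minus strand): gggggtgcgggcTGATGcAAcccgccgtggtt
Herpud1 also held the second ER stress element, ATTGGNCCACG, which occurred in 2 of the 32 (Herpud1 and Dnajb11) and in 0.0365% of all promoters. It overlaps no other match listed.
Herpud1 (chr8:94386365-94386399, plus strand): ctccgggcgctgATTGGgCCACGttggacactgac
The UPR element core TGACGTGG occurred in 0 of the 32 and in 0.676% of all promoters. The core GGAATG of TEAD factors, the DNA-binding partners of YAP and TAZ, occurred in 3 of the 32 (Eif2ak3, Ern1 and Pdia6) and in 14.7% of all promoters.

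With NIBR-LTSi, 14 of the 35 tested genes rose, 7 fell and 14 were not called. ER chaperones and protein disulfide isomerases made up 10 of the 14 rises, while Atf3, Ppp1r15a, Ddit4, Herpud1 and Xbp1 were among the falls. A call is an adjusted p under 0.05 in edgeR's quasi-likelihood test with Benjamini-Hochberg adjustment over all tested genes. The share called was 60% of the 35, against 42.0% of all 12592 tested genes; over all genes 22.8% rose and 19.2% fell. The changes were small: rises ran from 1.09-fold to 2.07-fold with a median of 1.15-fold, and 10 of the 14 were under 1.2-fold. Falls ran from 1.14-fold to 1.67-fold with a median of 1.38-fold. Changes of at least 1.5-fold were called in 3 of the 35 (Chac1, Atf3 and Ppp1r15a), against 10.9% of all tested genes. Libraries of the groups did not overlap for 25 of the 35, or 71.4%, against 52.5% of all tested genes. The median log2 fold change of the 35 was 0.09, against 0.02 over all tested genes.

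The number of rises moved most with one choice of scaling, while the other settings tried gave 10 to 17. When a trend of counts against gene width, a deposited column whose definition is not stated, was removed from each library, 6 of the 14 rises and all 7 falls were still called, and 9 genes were called lower in all. That adjustment moved the share of higher genes among all calls from 54.2% to 42.1%. Atf5, Chac1, Creld2, Hsp90b1, Pdia6 and Sdf2l1 among the rises, and all falls except Trib3, held their call under each of 15 alternatives. No called gene turned its sign under any of them.

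**Figure D1:**
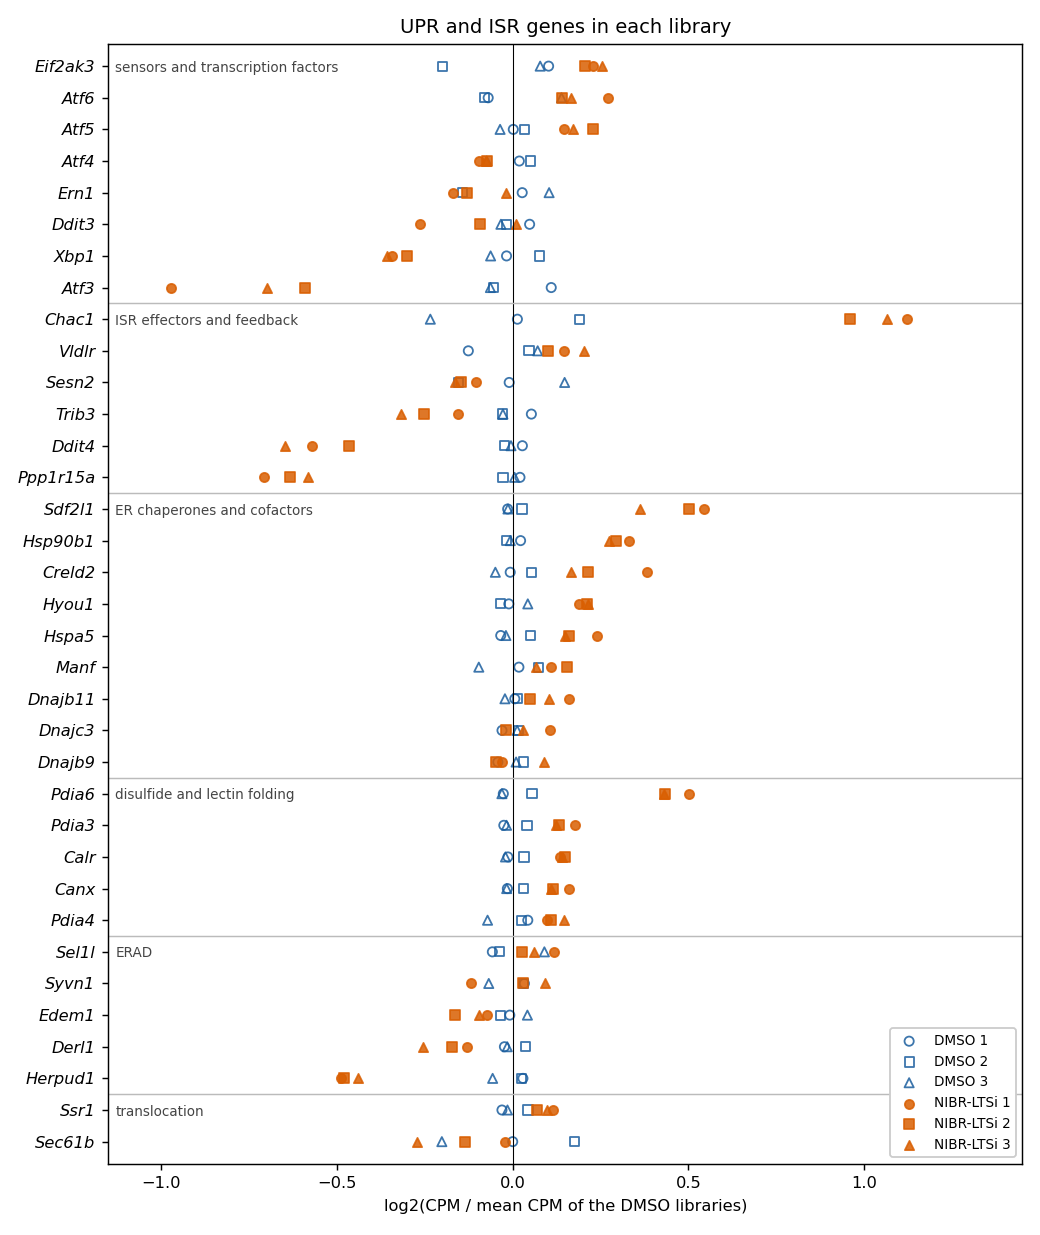
Level of each of the 35 tested genes in each library, as log2 of its CPM over the mean CPM of the DMSO libraries, with 1 marker per library and genes ordered by change within role groups. The NIBR-LTSi libraries lie to the right of the DMSO libraries for all 5 disulfide and lectin genes and far to the left for Atf3, Ppp1r15a, Ddit4 and Herpud1.

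Among the sensors, Atf6 (Entrez 226641, chr1:170704457-170868585) and Eif2ak3 (Entrez 13666, chr6:70844484-70905241) rose slightly and Ern1 was not called. Values for each library are given below as TMM-normalised CPM in the order of replicates 1, 2 and 3. Atf6 read 114, 113 and 131 CPM in DMSO and 144, 131 and 134 CPM in NIBR-LTSi, so that DMSO replicate 3 reached the edge of the treated range. Its change was 1.14-fold (log2 fold change 0.19 ± 0.06, SE; adjusted p = 0.0284). Eif2ak3 read 37.4, 30.3 and 36.8 CPM in DMSO and 40.8, 40.2 and 41.6 CPM in NIBR-LTSi, without overlap, a rise of 1.17-fold (0.22 ± 0.07, adjusted p = 0.0288). Ern1 (Entrez 78943, chr11:106397620-106487796) read 63.6, 56.6 and 67.1 CPM in DMSO and 55.5, 57.0 and 61.6 CPM in NIBR-LTSi, and the groups overlapped (-0.11 ± 0.07, adjusted p = 0.225). The calls of this group depended on single libraries. The call of Atf6 was lost without DMSO replicate 1 (adjusted p = 0.123), DMSO replicate 2 (0.114) or NIBR-LTSi replicate 1 (0.102), 2 (0.0638) or 3 (0.0782). That of Eif2ak3 was lost without DMSO replicate 2 (0.0652) and without NIBR-LTSi replicate 1 (0.0604), 2 (0.0806) or 3 (0.104), and Ern1 was called lower without DMSO replicate 2 (0.043). With the width adjustment Atf6 and Eif2ak3 lost their calls (0.195 and 0.0885), and Ern1 was called lower (0.00807); DESeq2 did not call Eif2ak3 (0.0553).

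The transcription factors below the sensors did not move together. Xbp1 (Entrez 22433, chr11:5520641-5525993), whose spliced mRNA encodes the active factor of the IRE1 arm, read 335, 357 and 325 CPM in DMSO and 267, 275 and 265 CPM in NIBR-LTSi. The treated libraries were all below the DMSO libraries, and Xbp1 fell 1.26-fold (-0.33 ± 0.04, adjusted p = 5.62e-05). The counts pool its spliced and unspliced forms. Atf4 (Entrez 11911, chr15:80255184-80257545) read 403, 412 and 378 CPM in DMSO and 372, 378 and 377 CPM in NIBR-LTSi. DMSO replicate 3 met the treated libraries, and Atf4 was not called (-0.08 ± 0.04, adjusted p = 0.118), although it was called lower without that replicate (0.0235). Per kilobase of gene width Atf4 was the second most abundant mRNA of the 36, at a mean level of 230.3 CPM per kb in DMSO and 218 in NIBR-LTSi.

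Atf5 (Entrez 107503, chr7:44812256-44816658), a relative of Atf4 that is also regulated by translation, read 106, 109 and 104 CPM in DMSO and 117, 124 and 119 CPM in NIBR-LTSi. It rose 1.13-fold without overlap (0.18 ± 0.04, adjusted p = 0.0043). Ddit3 (Entrez 13198, chr10:127290793-127296291), which encodes the death-associated factor CHOP, read 12.5, 11.9 and 11.8 CPM in DMSO and 10.1, 11.3 and 12.2 CPM in NIBR-LTSi. The groups overlapped, and Ddit3 was not called (-0.11 ± 0.09, adjusted p = 0.376). Atf3 (Entrez 11910, chr1:191170296-191183333), a stress-induced regulator that can repress transcription, had the largest fall of the 36. It read 67.6, 60.3 and 59.9 CPM in DMSO and 31.9, 41.6 and 38.6 CPM in NIBR-LTSi, a fall of 1.67-fold (-0.74 ± 0.09, adjusted p = 0.000274), with treated replicate 1 lowest.

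**Figure D2:**
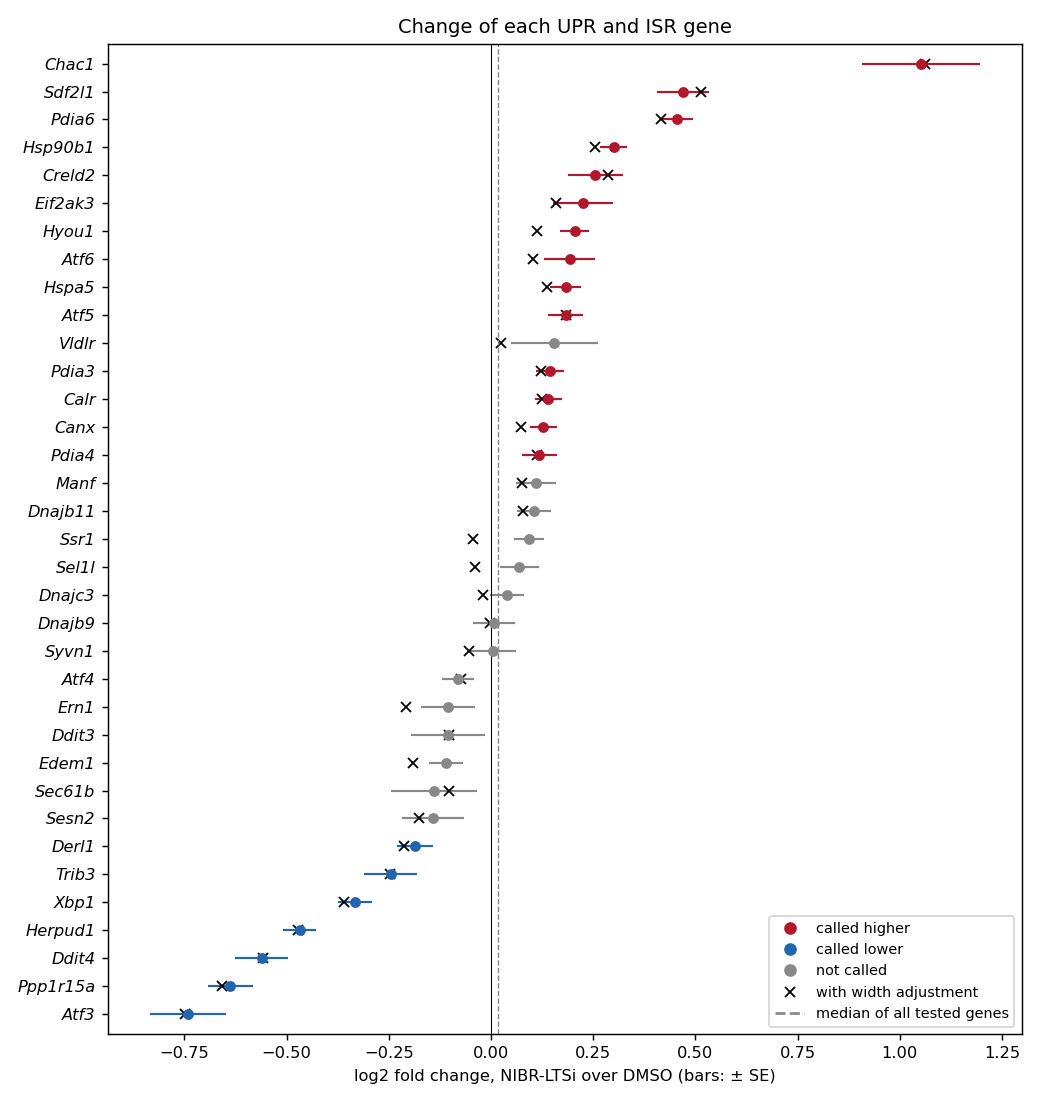
Log2 fold change of each of the 35 tested genes, NIBR-LTSi over DMSO, with bars of ± SE, crosses for the value after width adjustment and a dashed line at the median of all tested genes (0.02). Chac1 (1.05) and Atf3 (-0.74) are at the ends, and most of the genes called higher lie between 0.12 and 0.47.

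Of the 6 ISR effectors and feedback genes, 3 fell and 1 rose (66.7% called, against 42.0% of all tested genes). The summed level of the 6 went from 132 to 138 CPM in DMSO to 106 to 108 CPM in NIBR-LTSi. Ppp1r15a (Entrez 17872, chr7:45522917-45526268) encodes GADD34, the stress-induced subunit that directs a phosphatase to eIF2 and so ends the ISR. It read 45.8, 44.3 and 45.3 CPM in DMSO and 27.6, 29.1 and 30.2 CPM in NIBR-LTSi. The groups lay far apart, with a fall of 1.56-fold (-0.64 ± 0.06, adjusted p = 2.77e-06). Ddit4 (Entrez 74747, chr10:59949675-59951770), which encodes the mTORC1 inhibitor REDD1, read 29.1, 28.1 and 28.4 CPM in DMSO and 19.2, 20.7 and 18.2 CPM in NIBR-LTSi, a fall of 1.48-fold (-0.56 ± 0.07, adjusted p = 3.12e-05). Trib3 (Entrez 228775, chr2:152337425-152344060), a pseudokinase that feeds back on ATF4, read 27.7, 26.2 and 26.2 CPM in DMSO and 24.0, 22.4 and 21.4 CPM in NIBR-LTSi. It fell 1.19-fold (-0.24 ± 0.06, adjusted p = 0.0094), and the call was lost without DMSO replicate 1 (0.0518).

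Chac1 (Entrez 69065, chr2:119351242-119354326), which encodes an enzyme that degrades glutathione, moved the other way. It read 2.80, 3.17 and 2.36 CPM in DMSO and 6.04, 5.40 and 5.81 CPM in NIBR-LTSi, a rise of 2.07-fold (1.05 ± 0.14, adjusted p = 0.000113). This was the largest rise of the 36, on the second lowest level per kilobase among the tested members (1.70 CPM per kb in DMSO and 3.51 in NIBR-LTSi). Sesn2, a leucine sensor that restrains mTORC1, and Vldlr, a lipoprotein receptor, were not called, with log2 fold changes of -0.14 ± 0.08 (adjusted p = 0.157) and 0.15 ± 0.11 (0.272). Sesn2 was called lower without DMSO replicate 2 (0.0403).

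ER chaperones rose in 5 of 9 cases (55.6%, against 22.8% of all tested genes) and none fell, around a median log2 fold change of 0.18. Their summed level was 2298 to 2340.5 CPM in DMSO and 2624 to 2736 CPM in NIBR-LTSi, 1.15 times as high. Hsp90b1 (Entrez 22027, chr10:86690841-86705444), the HSP90 of the ER, read 708, 689 and 694 CPM in DMSO and 876, 855 and 843 CPM in NIBR-LTSi. All treated libraries were above all DMSO libraries, a rise of 1.23-fold (0.30 ± 0.03, adjusted p = 1.79e-05). Sdf2l1 (Entrez 64136, chr16:17130138-17132383), which partners ER DnaJ proteins, had the largest rise of the group. It read 25.1, 25.8 and 25.1 CPM in DMSO and 37.0, 35.9 and 32.6 CPM in NIBR-LTSi, a rise of 1.38-fold (0.47 ± 0.06, adjusted p = 9.65e-05).

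Hspa5 (Entrez 14828, chr2:34772090-34776529), the BiP gene whose promoter is printed above, read 810.5, 859.5 and 819 CPM in DMSO and 979.6, 927 and 920.1 CPM in NIBR-LTSi. Its rise was 1.14-fold without overlap (0.18 ± 0.04, adjusted p = 0.00213). Hyou1 (Entrez 12282, chr9:44379490-44392369), a nucleotide exchange factor for BiP, read 261, 257 and 271 CPM in DMSO and 299.9, 304 and 305 CPM in NIBR-LTSi, a rise of 1.15-fold (0.20 ± 0.04, adjusted p = 0.000688). The treated libraries of Hyou1 were close together and above the DMSO range. Creld2 (Entrez 76737, chr15:88819646-88826681), a stress-inducible ER protein, read 31.3, 32.7 and 30.4 CPM in DMSO and 41.0, 36.5 and 35.3 CPM in NIBR-LTSi, a rise of 1.19-fold (0.26 ± 0.07, adjusted p = 0.00875). With the width adjustment Hspa5 (adjusted p = 0.0732) and Hyou1 (0.0672) lost their calls. The other 4 of the group were not called: the BiP co-chaperones Dnajb9 (0.01 ± 0.05), Dnajb11 (0.10 ± 0.04) and Dnajc3 (0.04 ± 0.04), and the secreted protective factor Manf (0.11 ± 0.05), with adjusted p from 0.063 to 0.924. Manf was called higher with DMSO replicate 2 left out (0.0424) or library totals only (0.0247), and Dnajb11 with library totals only (0.00896) and upper-quartile factors (0.0452).

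All 5 genes of disulfide formation and lectin-assisted folding among the 36 rose, against 22.8% of all tested genes. Outside the 36, the more abundant disulfide isomerase P4hb fell, with values given below. The summed level of the 5 went from 2179 to 2269.7 CPM in DMSO to 2465 to 2516 CPM in NIBR-LTSi. Pdia6 (Entrez 71853, chr12:17266589-17284785), a protein disulfide isomerase that also attenuates IRE1, rose most. It read 182, 193 and 182 CPM in DMSO and 263, 251 and 249.9 CPM in NIBR-LTSi, a rise of 1.37-fold (0.45 ± 0.04, adjusted p = 3.35e-06), and the treated libraries lay well above the rest. Pdia3 (Entrez 14827, chr2:121413902-121438687), the isomerase that works with the lectin chaperones, read 605, 634 and 609 CPM in DMSO and 697, 675 and 671 CPM in NIBR-LTSi, a rise of 1.11-fold (0.14 ± 0.03, adjusted p = 0.00518). Calr (Entrez 12317, chr8:84842088-84846931), the soluble lectin chaperone calreticulin, had the highest level per kilobase of the 36 (255 CPM per kb in DMSO, 281 in NIBR-LTSi). Calr read 727, 751 and 724 CPM in DMSO and 805, 813 and 809 CPM in NIBR-LTSi, a rise of 1.10-fold (0.14 ± 0.03, adjusted p = 0.00397). Its membrane-bound relative calnexin, Canx (Entrez 12330, chr11:50293957-50325673), read 531, 548 and 530.3 CPM in DMSO and 599, 581 and 579 CPM in NIBR-LTSi, a rise of 1.09-fold (0.13 ± 0.03, adjusted p = 0.00854). Pdia4 (Entrez 12304, chr6:47796141-47813512), another disulfide isomerase, read 146, 144 and 135 CPM in DMSO and 152, 153 and 157 CPM in NIBR-LTSi, a rise of 1.09-fold (0.12 ± 0.04, adjusted p = 0.0419). Neither of the last pair overlapped between groups, but their margins were narrow. Canx lost its call without DMSO replicate 1 (adjusted p = 0.0502) or NIBR-LTSi replicate 2 (0.0599). Pdia4 lost its call in DESeq2 (0.139), with DESeq2 size factors (0.0888), with the replicate number as a block (0.0752), and when replicate 1 (0.0561) or 3 (0.136) of DMSO, or any of the NIBR-LTSi replicates (0.0665, 0.133 and 0.17), was left out. With the width adjustment the only call of the group was Pdia6, and the adjusted p was 0.0542 for Calr, 0.0775 for Pdia3, 0.285 for Canx and 0.0907 for Pdia4.

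Marker genes of epithelial cell types changed as well, in both directions. The summed level of 6 goblet cell markers was 2731 to 3101.5 CPM in DMSO and 3119 to 3444 CPM in NIBR-LTSi; 2 of the 6 rose (Clca1 and Zg16), 1 fell (Spink4) and Muc2, Tff3 and Fcgbp were not called. Of 5 Paneth cell markers, Mmp7 and Ang4 rose, Lyz1 and Itln1 fell and Pla2g2a had no read, and the sum went from 356 to 386 CPM in DMSO to 274 to 296 CPM in NIBR-LTSi. Enteroendocrine markers summed to 355 to 370.2 CPM in DMSO and 253 to 265 CPM in NIBR-LTSi, with 2 of 3 lower. Plasma cell markers summed to 174 to 184 CPM in DMSO and 209 to 211 CPM in NIBR-LTSi, nearly all of it Sdc1, which epithelium also expresses, while Jchain was at no more than 0.0556 CPM. Clca1 and Itln1 carried most of the difference in the goblet and Paneth sums. Without Clca1 the goblet sum was 2497 to 2864 CPM in DMSO and 2324 to 2651 CPM in NIBR-LTSi, and the median log2 fold change of the 6 goblet markers was -0.12. Without Itln1 the Paneth sum was 85.2 to 96.4 CPM in DMSO and 76.6 to 82.9 CPM in NIBR-LTSi, and the median of its 4 tested markers was 0.00282. The sum of 5 enterocyte markers was 32805 to 33738 CPM in DMSO and 28326 to 30710 CPM in NIBR-LTSi, with Fabp1 and Sis lower, Alpi and Apoa1 higher and Apoa4 not called. The part of these cell types in these results was not tested.

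ER-associated degradation (ERAD) is the route by which misfolded proteins reach the proteasome. Of its 5 tested genes 2 fell and none rose, a share called (40%) near that of all genes, and its difference from the chaperones was not tested. The summed level of the 6 went from 703 to 709 CPM in DMSO to 633 to 645 CPM in NIBR-LTSi; without Herpud1 it was 529.6 to 545 CPM and 511 to 524 CPM. Herpud1 (Entrez 64209, chr8:94386429-94395371), the HERP scaffold of the HRD1 ligase and a common readout of ER stress, read 173, 173 and 163 CPM in DMSO and 121, 122 and 125 CPM in NIBR-LTSi. The groups were widely separated, with a fall of 1.38-fold (-0.47 ± 0.04, adjusted p = 3.02e-06). Derl1 (Entrez 67819, chr15:57869502-57892418), a channel component, read 136, 142 and 137 CPM in DMSO and 127, 123 and 116 CPM in NIBR-LTSi, a fall of 1.14-fold (-0.19 ± 0.04, adjusted p = 0.00525). The ligase Syvn1 (0.00 ± 0.06, adjusted p = 0.959) and its adaptor Sel1l (0.07 ± 0.05, 0.27) were not called. Edem1, which targets glycoproteins for degradation, was just outside the threshold (-0.11 ± 0.04, adjusted p = 0.0548). It was called lower without DMSO replicate 2 (0.0458), without NIBR-LTSi replicate 1 (0.0375), in limma-voom (0.0492), with DESeq2 size factors (0.0341), with a filter of 1 CPM in 3 libraries (0.0462) and with the width adjustment (0.00758). Derl3 (Entrez 70377, chr10:75893398-75895941) held 0, 3 and 2 reads in DMSO and 7, 10 and 5 reads in NIBR-LTSi; it was below the filter and was not tested.

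Neither gene of protein import into the ER was called. Sec61b, a subunit of the translocation channel, differed by -0.14 ± 0.10 (adjusted p = 0.333) and Ssr1, a subunit of the translocon-associated complex, by 0.09 ± 0.04 (0.0605). Ssr1 was called higher with DMSO replicate 2 left out (0.0284), with library totals only (0.00635) and with upper-quartile factors (0.0434).

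**Figure D3:**
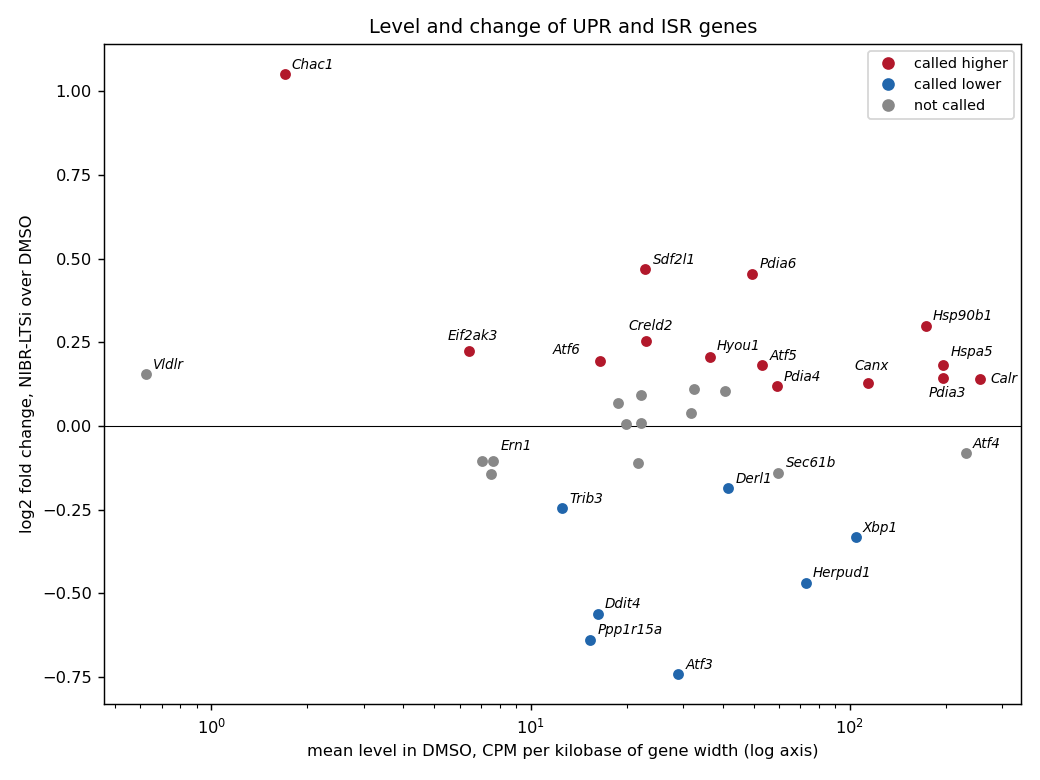
Log2 fold change of each tested gene against its mean level in DMSO, in CPM per kilobase of gene width on a log axis, coloured by call. The abundant folding genes Calr, Pdia3, Hspa5, Hsp90b1 and Canx, all above 100 CPM per kb, changed by 0.13 to 0.30, while Chac1 rose by 1.05 from 1.70 CPM per kb.

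Per kilobase the order of levels in DMSO was led by Calr (255 CPM per kb), Atf4 (230.3), Pdia3 (196), Hspa5 (196), Hsp90b1 (173), Canx (114) and Xbp1 (104). Pdia3 and Hspa5, neighbours in that order, could not be separated. The lowest tested level was that of Vldlr (0.625 CPM per kb). Replicates were close: the coefficient of variation of a gene between libraries of a group had a median of 3.27% in DMSO and 3.47% in NIBR-LTSi.

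The rest of the pathway was read from a list of 84 further genes, of which 83 were tested. Of these, 31 rose, 15 fell and 37 were not called (55.4% called, against the 42.0% of all genes). Changes of at least 1.5-fold were called in 12 of the 83, against 10.9% of all tested genes. Of the 12, 8 were in the ATF4 target list. With the width adjustment 20 of the 83 rose and 16 fell. With library totals as the only scaling 36 rose and 9 fell.

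A list of known ATF4 targets held amino acid synthesis and transport genes beside regulators such as Cebpb. Like the other lists, it was chosen with earlier results of these data known. Of its 16 tested genes 10 rose and 2 fell, a share called of 75%, against 42.0% of all tested genes. Of the rises 8 were at least 1.5-fold, a size called in 10.9% of all tested genes. The median log2 fold change over the 16 was 0.59. Slc7a11, the cystine importer, read 5.33, 5.50 and 4.49 CPM in DMSO and 15.3, 14.6 and 15.0 CPM in NIBR-LTSi, a rise of 2.93-fold (1.55 ± 0.10, adjusted p = 2.18e-07). Psat1, of serine synthesis, read 66.3, 71.2 and 64.2 CPM in DMSO and 151, 144 and 145 CPM in NIBR-LTSi, a rise of 2.18-fold (1.12 ± 0.05, adjusted p = 9.6e-09). Asns, asparagine synthetase, read 72.5, 81.3 and 70.4 CPM in DMSO and 137, 143 and 137 CPM in NIBR-LTSi, a rise of 1.86-fold (0.90 ± 0.05, adjusted p = 1.59e-07). For each of these the groups were far apart. Phgdh, Shmt2, Mthfd2, Slc7a5, Slc7a1, Nupr1 and Stc2 also rose, and Cebpb and Cebpg fell, names given after their values were seen. Of the 36 genes, Atf3, Trib3, Ddit4 and Ppp1r15a, also known as ATF4 targets, fell. Chac1 rose 2.07-fold, and Ddit3, Sesn2 and Vldlr were not called. Of these genes, Atf3, Trib3 and Vldlr hold the C/EBP-ATF core as well as Chac1. The difference between these genes and the list was not tested. The fall of Cebpb and Cebpg as a pair was less stable: of the 16, 0 were called lower with library totals only. The same count of 0 was found when replicate 1 or 2 of DMSO, or 2 or 3 of NIBR-LTSi, was left out, against 3 without DMSO replicate 3 and 1 without NIBR-LTSi replicate 1.

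Subunits of eIF2 itself rose. Eif2s2 read 103, 109 and 103 CPM in DMSO and 173, 166 and 165 CPM in NIBR-LTSi, a rise of 1.598-fold (0.68 ± 0.04, adjusted p = 1.76e-07). Eif2s1, the subunit that the ISR kinases phosphorylate, rose 1.22-fold (0.29 ± 0.05, adjusted p = 0.000346) and Eif2s3x 1.195-fold (0.26 ± 0.05, 0.00137). In the whole subgroup of eIF2 kinases, phosphatase and eIF2B, 6 of 12 rose and 1 fell (58.3% called, against 42.0% of all tested genes). The 6 rises became 4 in DESeq2, with the width adjustment and without NIBR-LTSi replicate 2. They became 5 without DMSO replicate 1 or NIBR-LTSi replicate 1, and 7 with library totals only. Ppp1r15b, the constitutive counterpart of Ppp1r15a, read 199, 195 and 208 CPM in DMSO and 212, 210.1 and 207 CPM in NIBR-LTSi and was not called (0.06 ± 0.04, adjusted p = 0.222). Its sign turned with the width adjustment (-0.00467), and with library totals only it was called higher (adjusted p = 0.0376).

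Of the 9 genes for other sensors, membrane-bound transcription factors and their proteases, 1 rose and 4 fell (55.6% called, against 42.0% of all tested genes). Creb3l2, which is known for secretory pathway capacity, read 80.5, 81.7 and 89.6 CPM in DMSO and 141, 133 and 134 CPM in NIBR-LTSi, a rise of 1.62-fold (0.69 ± 0.05, adjusted p = 6.42e-07). Creb3l3, an enterocyte and liver factor of lipid metabolism, read 638, 630.4 and 608 CPM in DMSO and 405, 429.6 and 416 CPM in NIBR-LTSi, a fall of 1.501-fold (-0.59 ± 0.04, adjusted p = 1.74e-07). Creb3l1 read 11.6, 11.3 and 12.04 CPM in DMSO and 8.52, 8.14 and 8.59 CPM in NIBR-LTSi, a fall of 1.38-fold (-0.47 ± 0.08, adjusted p = 0.000859). In none of them did the groups overlap. Creb3 (-0.20 ± 0.05, adjusted p = 0.00566) and Creb3l4 (-0.77 ± 0.14, 0.00091), named after their values were seen, also fell. Ern2, the IRE1 form of mucus-secreting epithelium, read 10.7, 5.89 and 10.2 CPM in DMSO and 6.81, 7.16 and 6.65 CPM in NIBR-LTSi and was not called (-0.39 ± 0.20, adjusted p = 0.164). DMSO replicate 2 lay below all treated libraries, and without it Ern2 was called lower (-0.60, adjusted p = 0.00122).

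Of 22 further folding and glycosylation genes 10 rose and 3 fell (59.1% called, against 42.0% of all tested genes), and the median log2 fold change was 0.10. With the width adjustment 5 rose and 3 fell. Pdia5 rose 1.47-fold (0.56 ± 0.07, adjusted p = 3.58e-05) and the PDI-like Erp29 1.29-fold (0.37 ± 0.05, 0.000179). The thiol oxidase Ero1b fell 1.48-fold (-0.57 ± 0.08, adjusted p = 8.9e-05). P4hb, named after its values were seen, is also a disulfide isomerase. It read 4958, 5073 and 4941 CPM in DMSO and 4490, 4303 and 4172 CPM in NIBR-LTSi. The groups did not overlap, and P4hb fell 1.15-fold (-0.21 ± 0.03, adjusted p = 0.000502). Agr2, the disulfide isomerase needed for mucin, read 138, 134 and 124 CPM in DMSO and 124, 121 and 122 CPM in NIBR-LTSi and was not called (-0.11 ± 0.05, adjusted p = 0.079), but was called lower without DMSO replicate 3 (0.0152). Rises in this subgroup numbered 5 without NIBR-LTSi replicate 2, 6 without DMSO replicate 1 and 6 in DESeq2.

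Among 12 further ERAD genes 1 rose and 3 fell, a share called (33.3%) below the 42.0% of all tested genes. The lectin Os9 read 316, 299 and 315 CPM in DMSO and 269, 268 and 261 CPM in NIBR-LTSi, a fall of 1.17-fold (-0.22 ± 0.04, adjusted p = 0.000465). The mannosidase Edem3 rose 1.14-fold (0.19 ± 0.05, adjusted p = 0.007), a call lost with the width adjustment (0.165). Of 12 further translocation and signal peptidase genes 3 rose and 2 fell, a share called (41.7%) near that of all tested genes. Ssr3 rose 1.12-fold (adjusted p = 0.00328), a call lost with the width adjustment (0.0904). The signal peptidase subunits Sec11a and Sec11c fell 1.11-fold and 1.14-fold (adjusted p = 0.0203 and 0.0114). With library totals only these were not called (0.0801 and 0.0513). Sec11a also lost its call without DMSO replicate 2 (0.0578) or NIBR-LTSi replicate 3 (0.0753), and Sec11c without DMSO replicate 1 (0.0657). The 3 rises became 0 with the width adjustment and 1 in DESeq2, with DESeq2 size factors, without DMSO replicate 1 and without any one of the NIBR-LTSi replicates, while the 2 falls became 4 without DMSO replicate 3.

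**Figure D4:**
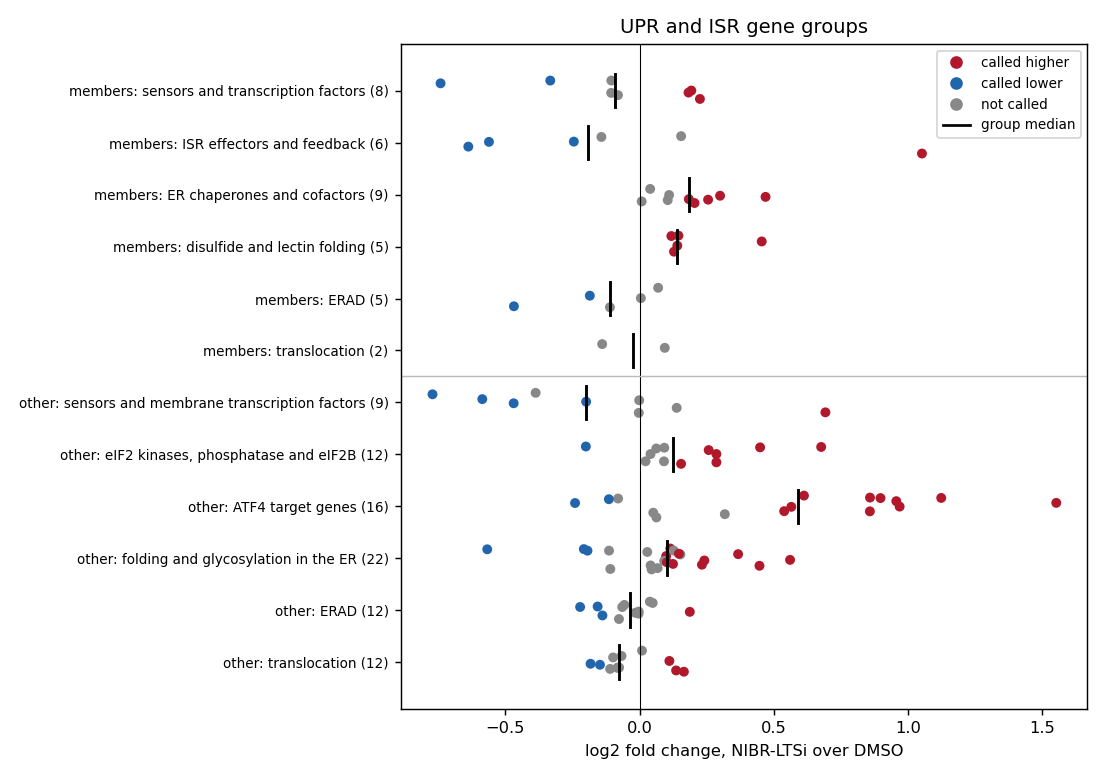
Log2 fold change of every tested gene by role group, for the 36 listed genes above the line and the other pathway genes below it, with the number tested in brackets and a bar at each group's median. The chaperone and disulfide groups of the 36 have no gene called lower, while 3 of the 22 further folding genes are. The ATF4 target list has a median of 0.59.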

How the data were processed

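Per the labels' protocols, RNA from dissociated organoids entered a stranded mRNA library kit. The authors deposited 1 table of whole-number read counts per gene with Entrez identifier, symbol and gene width for 6 libraries. The submitters' processing notes name mm10 and edgeR; for the aligner, the counter and its handling of strand, the name was not given in the sources used here. Exons of 11 of the 36 genes share 12 to 485 bases with another annotated gene, mostly on the opposite strand, so some reads could be misassigned. The 15 rows lacking a symbol went by their Entrez identifier.

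Counts were normalised with TMM, filtered with filterByExpr and tested with edgeR 4.0.16 (R 4.3.3; quasi-likelihood F-test, robust, two-sided, group as the only term, Benjamini-Hochberg over 12592 genes). SE is the absolute log2 fold change over the square root of F, and levels are TMM-normalised CPM; between genes they are compared per kilobase of deposited width. How that width was defined is not stated, and the levels per kilobase and the width adjustment rest on it. The coefficient of variation between replicates was 6.02%. Positions and promoters are RefSeq GRCm38.p6, the assembly of mm10. On simulated counts with 200 genes changed among 12592, 75.3% of 1.5-fold, 90% of 2-fold and 98.4% of 4-fold changes were recovered, and 10 of 184 calls were false. The simulation held far fewer changed genes than the 5287 called in the data and no change under 1.5-fold. Its rates therefore do not carry over to the smaller changes reported here.

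The genes and lists were chosen with earlier results of these data known. Named genes were all 36, with library values for those called, for the sensors, Xbp1, Atf4, Ddit3 and Hspa5 and for genes below the filter, and, per subgroup of the other pathway genes, the 3 with the smallest p plus Ern2, Creb3l1, Agr2, Asns and Ppp1r15b. The 15 alternatives were limma-voom (limma 3.58.1), DESeq2 1.42.0, edgeR with DESeq2 size factors, with upper-quartile factors or with library totals only, all genes with a count, a filter of 1 CPM in 3 libraries, a replicate block, a loess width adjustment (span 0.5) and leaving out each library. No pair of libraries agreed within sampling noise. Protein sequences were not analysed here. A few listed genes are left out of the text.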

Additional observations from a re-analysis of the deposited data

How the results depend on the processing

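Counts of calls over all tested genes stayed within 1.5 times of 5287 under all 15 alternatives (4212 to 5346). With the width adjustment 6 of the 36 genes rose, and 20 of the other pathway genes; with library totals only 9 of the other pathway genes fell. Leaving out 1 library gave 10 to 14 rises and 6 to 10 falls among the 36, 22 to 31 rises and 10 to 19 falls among the other pathway genes, and 4212 to 5105 calls over all genes. Of the 21 called genes among the 36, 12 held their call under all alternatives and none turned its sign.

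The replicate numbers do not mark a stated shared culture, and the deviations of same-numbered libraries correlated at 0.05, -0.30 and 0.56 for numbers 1, 2 and 3; only the libraries numbered 3 matched each other best. With the replicate number as a block, 13 of the 36 rose and 7 fell, 4945 genes were called in all, and 27 of the other pathway genes rose and 14 fell; Pdia4 was the only one of the 36 to lose its call.

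Among the 36, signs turned only for uncalled genes, whose log2 fold changes ran from 0.005 (Syvn1) to 0.09 ± 0.04 (Ssr1). Dnajb9 read -0.0108 in DESeq2, -0.0107 with DESeq2 size factors, -0.00212 with the width adjustment and -0.0458 to 0.0231 with 1 library left out. Syvn1 read -0.0137, -0.0138 and -0.0541 under the same settings and -0.0504 to 0.0536 with 1 library left out. Dnajc3 read -0.0203 with the width adjustment and -0.00114 to 0.0568 with 1 library left out, and Sel1l and Ssr1 read -0.0395 and -0.0439 with the width adjustment. The cause was not tested. Depth limits Derl3, with 0 to 10 reads per library.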

Other observations

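The libraries of a group were not evenly ordered, and this was not particular to the rises. NIBR-LTSi replicate 1 was the highest library of its group for 9 of the 14 genes that rose, and DMSO replicate 2 the highest of its group for 9 of the 14. Each of these libraries was also highest in its group for 7 of the 14 genes not called and for 18 of all 35. Over the 35 tested genes of the 36, the largest coefficient of variation between replicates was 14.5% in DMSO and 13.3% in NIBR-LTSi.

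Genes with the same motif letters in their promoters were also counted over all 10024 tested genes that had a promoter window. Of 17 with the ER stress response element, 8 of which are among the 36, 47.1% rose and 11.8% fell. Of the 9 that are outside the 36, 22.2% rose and 22.2% fell, so the rises were mostly those already given. Of 8 with the second element 12.5% rose and 25% fell. Of 280 with the C/EBP-ATF core 26.8% rose and 18.2% fell, of 1456 with the TEAD core 23.4% rose and 21.2% fell, and of 99 with the UPR element core 24.2% rose and 14.1% fell. Over all 12592 tested genes, with or without a window, 22.8% rose and 19.2% fell; the differences were not tested.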
